A study of Mus musculus with 12 samples.

Results

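The 46 genes described here encode the enzymes and membrane proteins of the lysosome, the acid compartment in which cells break down proteins, glycans and lipids. They were chosen by name as known lysosomal genes, with no measured value in the rule beyond the mean level below. The choice was made with earlier results of these data known. The genes comprise 11 cathepsins and other peptidases, 13 glycosidases and glycan sulfatases, 11 lipid enzymes and soluble cofactors, 10 membrane proteins, and Tfeb. All 46 were found among the 24411 gene symbols measured, and 45 had a mean normalised read count of at least 10 over the 12 libraries and entered the test, out of 11484 genes tested in all. Ctsh, the remaining cathepsin, was listed at 0 in the 3 DMSO libraries and reached at most 2.96 elsewhere, so it was not tested. The study measured RNA in mouse leukaemia cells of bone marrow origin on a BALB/c background that carry mutant CSF3R, the receptor for granulocyte colony-stimulating factor, together with mutant CEBPA, a transcription factor of myeloid differentiation. All 4 groups carry both mutations. The cells were treated for 24 h with DMSO, the solvent control, with 50 nM ruxolitinib, which blocks JAK1 and JAK2 signalling, with 2 nM GSK-LSD1, which blocks LSD1 (Kdm1a), an enzyme that takes methyl groups off histones, or with both drugs at those doses, here called the combination. Each group had 3 libraries, and the labels do not say whether these came from separate cultures, so the p-values measure the spread between these samples, which may be technical. The labels do not say whether the cells are 1 clone.

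Lysosomal enzymes are made in the endoplasmic reticulum, tagged with mannose 6-phosphate in the Golgi and carried to the lysosome by receptors. Many of their genes share an E-box in the promoter that is bound by TFEB, TFE3 and MITF, the factors that couple lysosome production to nutrient supply. In myeloid cells lysosomal proteins rise during maturation towards macrophages and neutrophils, which digest what they engulf, and cathepsins also trim proteins for antigen presentation.

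Summed normalised counts were 8193575 to 8499106 per library, and no library's total stood apart. These totals come after the authors' normalisation and say little about sequencing depth. The first principal component, which held 54.7% of the variance, separated the libraries with GSK-LSD1 from those without it. On the second, with 11.1%, ruxolitinib replicate 2 and combination replicate 3 stood apart from the rest. Counts of changed lysosomal genes are therefore also given without both of these libraries. Over 11035 genes the change after ruxolitinib followed the GC content of the transcript (Spearman's rho across genes 0.429), more than the change after GSK-LSD1 (0.108) or the combination (0.209). The median GC content of the 45 lysosomal genes was 51.3%, against 50.1% of all genes tested.

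Summed over the 45 genes, lysosomal RNA was higher in every library with GSK-LSD1 than in any library without it. For the glycosidases and sulfatases alone, the libraries with GSK-LSD1 only lay below those with ruxolitinib, as given below. The reads of the 45 genes made up 0.707% to 0.721% of the library in the DMSO samples and 0.758% to 0.781% after ruxolitinib. They made up 0.844% to 0.864% after GSK-LSD1 and 0.911% to 0.942% after the combination. The 4 ranges did not overlap. Because these are bulk samples, more cells of a type and more RNA per cell cannot be told apart.

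Gene by gene, 29 of the 45 lysosomal genes rose and 1 fell after GSK-LSD1 (limma, Benjamini-Hochberg adjusted p under 0.05). Of all genes tested in that comparison, 17.0% rose and 15.5% fell. After the combination 32 rose and 1 fell, against 20.5% and 21.8% of all genes. After ruxolitinib alone 1 rose and 0 fell, against 1.00% and 0.627% of all genes. At an unadjusted p under 0.05, 15 of the 45 differed between ruxolitinib and DMSO, where 17.5% of all genes did. The median log2 fold change of the 45 genes was 0.27 after GSK-LSD1, 0.33 after the combination and 0.11 after ruxolitinib, while the median over all genes lay between -0.01 and -0.00 in these comparisons. The ruxolitinib median was 0.07 without ruxolitinib replicate 2 and 0.07 with GC correction. Most rises were small: 4 genes rose at least 2-fold after GSK-LSD1 and 5 did so after the combination. Without ruxolitinib replicate 2 and combination replicate 3, 30 rose and 1 fell after GSK-LSD1, 33 rose and 2 fell after the combination, and 2 rose after ruxolitinib.

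**Figure D1:**
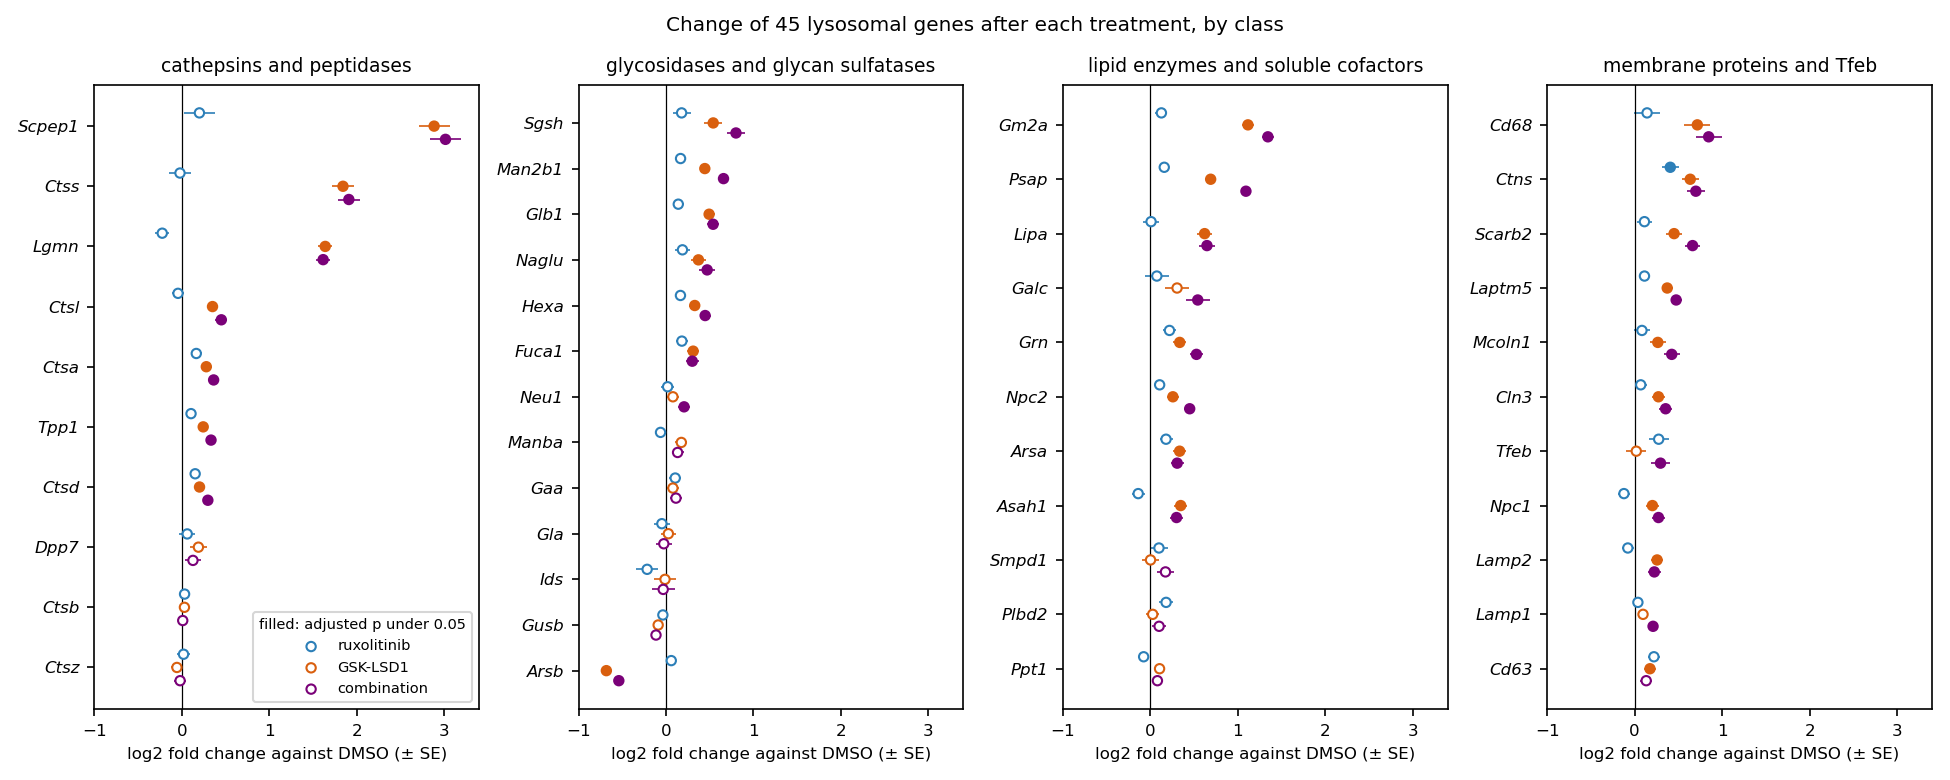
Log2 fold change against DMSO (horizontal axis, ± SE, scale log2(normalised count + 1)) of 45 lysosomal genes in 4 panels by class, for ruxolitinib, GSK-LSD1 and the combination, with filled points for adjusted p under 0.05. Scpep1, Ctss and Lgmn lie far to the right for GSK-LSD1 and the combination, Arsb is the gene to the left, and the ruxolitinib points cluster near 0.

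Rises were found in each of the 4 classes. After GSK-LSD1, 7 of 10 cathepsins and peptidases, 6 of 13 glycosidases and sulfatases, 7 of 11 lipid enzymes and cofactors and 9 of 10 membrane proteins rose. After the combination the counts were 7, 7, 8 and 9. Of all genes tested, 17.0% rose after GSK-LSD1 and 20.5% after the combination. The median log2 fold changes after GSK-LSD1 were 0.26, 0.18, 0.33 and 0.27 in the same order, and after the combination 0.35, 0.21, 0.45 and 0.39. These are descriptions of the classes, and the difference between classes was not tested. In a test for any difference among the 4 treatments (limma's F-test), 34 of the 45 genes passed, where 42.8% of all genes did, and all 10 membrane proteins were among them. The genes that did not pass it were Ctsb, Ctsz, Dpp7, Gaa, Gla, Gusb, Ids, Neu1, Smpd1, Plbd2 and Tfeb.

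**Figure D2:**
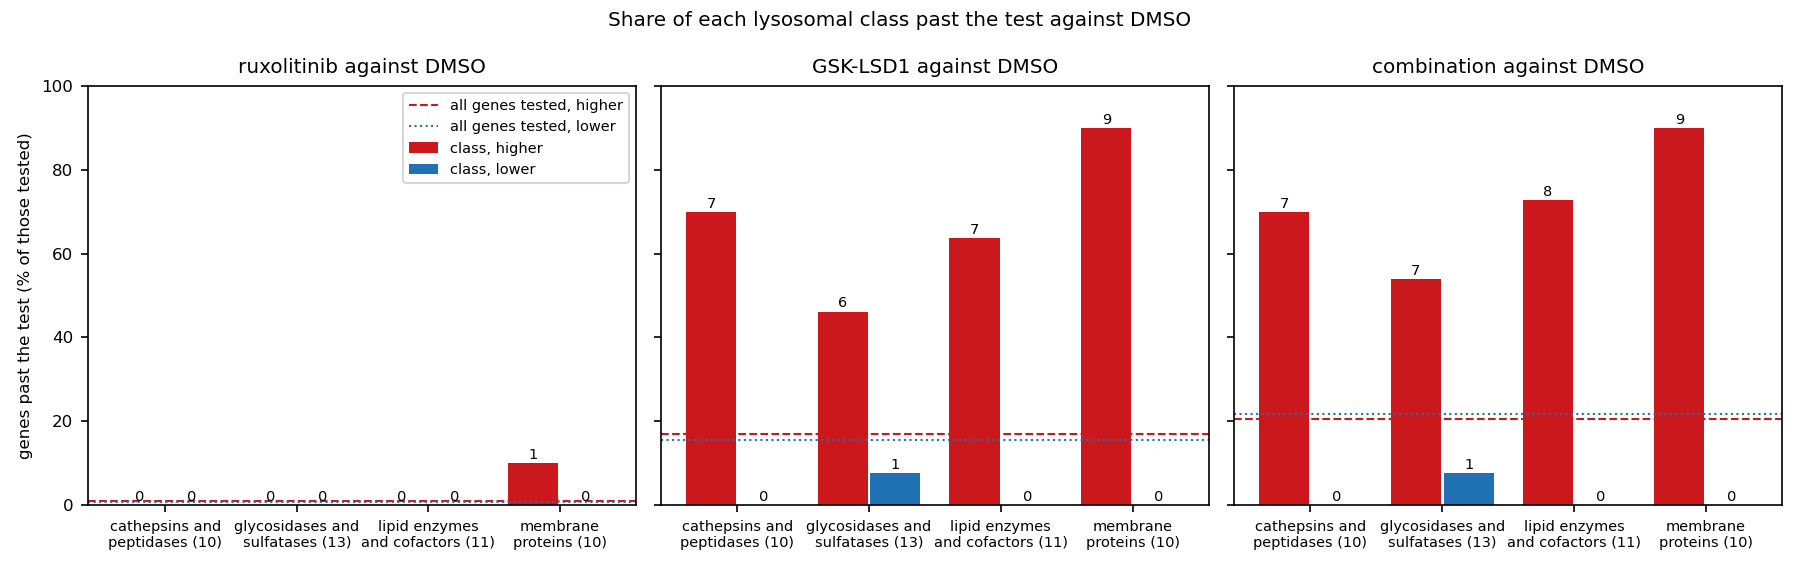
Percent of the tested genes of each lysosomal class that were higher or lower than DMSO at adjusted p under 0.05 (vertical axis; bars, with the number of genes above each), for the 3 treatments. Dashed and dotted lines give the percent of all 11484 genes called higher and lower, 17.0% and 15.5% for GSK-LSD1.

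Among the peptidases, 3 genes rose far more than the others. Scpep1, a serine carboxypeptidase (chromosome 11, 88924020 to 88955465, minus strand, GRCm38), had normalised counts of 30.8, 19.0 and 34.7 in the DMSO libraries and 36.8, 29.8 and 28.7 after ruxolitinib. It had 191, 208 and 227 after GSK-LSD1 and 254, 231 and 202 after the combination. The libraries with GSK-LSD1 were all above those without it, and within each of these sets the treatments overlapped. The log2 fold change was 2.89 ± 0.18 (SE) after GSK-LSD1 (limma adjusted p = 8.2e-11) and 3.02 ± 0.18 after the combination (adjusted p = 3.0e-11). Scpep1 shares its locus with the antisense gene Scpep1os, and no strand setting is given in the sources used here, so reads of the pair cannot be told apart.

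Ctss, cathepsin S, a cysteine protease that trims the invariant chain of MHC class II (chromosome 3, 95526786 to 95556403, plus strand), had 78.5, 68.0 and 73.3 normalised counts with DMSO and 67.7, 90.4 and 61.3 with ruxolitinib. It had 239, 269.7 and 289 with GSK-LSD1 and 267, 294 and 273 with the combination. Its 6 libraries with GSK-LSD1 did not overlap the other 6. The rise was 1.84 ± 0.13 log2 units after GSK-LSD1 and 1.91 ± 0.13 after the combination (limma adjusted p = 5.8e-10 and 2.6e-10). Lgmn, legumain, an asparaginyl endopeptidase that also activates cathepsins (chromosome 12, 102394084 to 102439813, minus strand), had 177, 171 and 177 with DMSO and 146, 156 and 147 with ruxolitinib. It had 604, 509.6 and 535 with GSK-LSD1 and 533, 539 and 545 with the combination. The rise was 1.64 ± 0.08 and 1.62 ± 0.08 (limma adjusted p = 2.7e-12 in both). All 3 ruxolitinib libraries lay below the DMSO libraries for Lgmn, by -0.22 ± 0.08 log2 units, which did not pass the test (limma adjusted p = 0.161).

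The promoters of the 2 most raised genes, Scpep1 and Ctss, are shown from 70 bases before to 30 bases after the RefSeq start (GRCm38.p6), since these genes led the response. In Ctss, capitals mark the PU.1 motif GAGGAAGT, read on the opposite strand. Neither that motif nor the others searched was found in the 300-base window of Scpep1.
Ctss, chr3:95526716-95526815, plus strand: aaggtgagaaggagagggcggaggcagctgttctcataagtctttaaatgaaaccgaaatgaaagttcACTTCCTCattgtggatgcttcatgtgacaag
Scpep1, chr11:88955413-88955512, minus strand: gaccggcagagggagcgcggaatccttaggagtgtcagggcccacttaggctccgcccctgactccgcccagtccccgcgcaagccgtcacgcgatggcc

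The other peptidases moved by much less. Ctsl, cathepsin L, rose by 0.35 ± 0.07 log2 units after GSK-LSD1 and 0.45 ± 0.07 after the combination. Ctsa, the protective protein that stabilises beta-galactosidase and neuraminidase, rose by 0.28 ± 0.06 and 0.36 ± 0.06. Tpp1, tripeptidyl peptidase, rose by 0.25 ± 0.06 and 0.33 ± 0.06. Ctsd, the aspartic protease cathepsin D, rose by 0.20 ± 0.06 and 0.30 ± 0.06, and its rise after GSK-LSD1 was lost without DMSO replicate 1 or GSK-LSD1 replicate 1 (limma adjusted p = 0.0589 to 0.0663). Ctsb, Ctsz and Dpp7 passed the test in no comparison. Ctsb, cathepsin B, had group means of 2296 ± 73.7 (SD, n = 3) with DMSO, 2347 ± 23.9 with ruxolitinib, 2345 ± 86.2 with GSK-LSD1 and 2314 ± 74.5 with the combination, and its difference after GSK-LSD1 was 0.03 ± 0.05 log2 units.

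**Figure D3:**
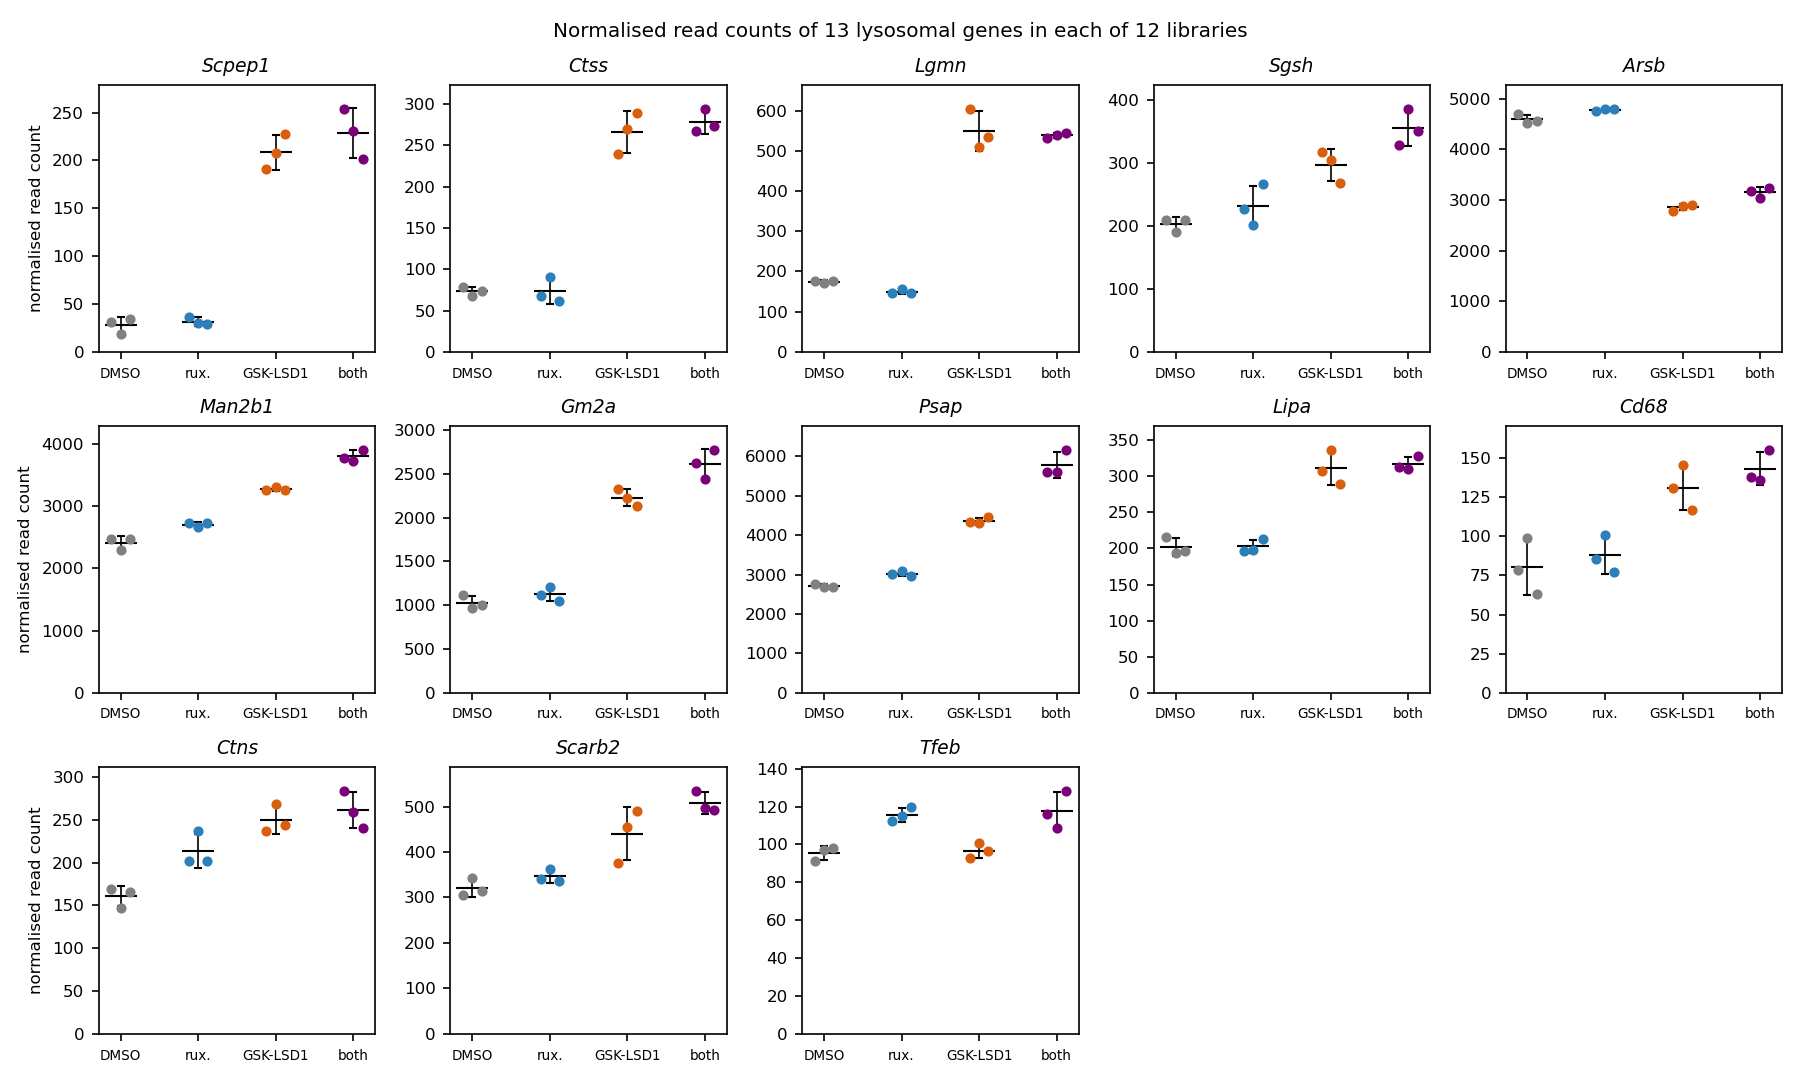
Normalised read counts (vertical axes, from 0) of 13 lysosomal genes in each of the 12 libraries, by treatment, with group means and SD. The libraries with GSK-LSD1 lie above those without it for Scpep1, Ctss, Lgmn and Gm2a and below them for Arsb, and Psap is highest in the combination.

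Of the enzymes that cut glycans, 6 rose after GSK-LSD1 and Arsb fell. Arsb, arylsulfatase B, which removes sulphate from dermatan and chondroitin sulphate (chromosome 13, 93771630 to 93943016, plus strand), had 4697, 4518 and 4553 normalised counts with DMSO and 4755, 4795 and 4799 with ruxolitinib. It had 2787, 2887 and 2904 with GSK-LSD1 and 3182, 3047 and 3243 with the combination. Every library with GSK-LSD1 was below every library without it. Arsb fell by 0.68 ± 0.05 log2 units after GSK-LSD1 and by 0.54 ± 0.05 after the combination (limma adjusted p = 1.6e-09 and 3.6e-08), and was the member that fell in both. Arsb overlaps 4 annotated non-coding genes, among them Gm47210 and Gm26527 on the other strand.

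Sgsh, the sulfamidase of heparan sulphate (chromosome 11, 119343425 to 119355536, minus strand), had 211, 191 and 209.9 with DMSO and 227, 202 and 267 with ruxolitinib. It had 318, 306 and 268 with GSK-LSD1 and 329, 387 and 352 with the combination. Its rise was 0.54 ± 0.10 and 0.80 ± 0.10 log2 units, and the highest ruxolitinib library came within 2 counts of the lowest GSK-LSD1 library. Man2b1, the lysosomal alpha-mannosidase (chromosome 8, 85083270 to 85098282, plus strand), had 2473, 2288 and 2466 with DMSO, 2729, 2656 and 2718 with ruxolitinib, 3254, 3308 and 3259 with GSK-LSD1, and 3773, 3720.1 and 3899 with the combination. The 4 groups did not overlap and stood in that order. The rise was 0.44 ± 0.05 after GSK-LSD1 and 0.66 ± 0.05 after the combination (limma adjusted p = 1.6e-06 and 2.7e-09).

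Glb1, beta-galactosidase, rose by 0.49 ± 0.06 and 0.54 ± 0.06 log2 units after GSK-LSD1 and the combination. Hexa, the alpha chain of beta-hexosaminidase, rose by 0.33 ± 0.06 and 0.45 ± 0.06, Naglu, which acts on heparan sulphate, by 0.37 ± 0.09 and 0.47 ± 0.09, and Fuca1, alpha-fucosidase, by 0.31 ± 0.07 and 0.30 ± 0.07. Neu1, the sialidase, passed after the combination only (0.21 ± 0.07, limma adjusted p = 0.0227), and that call was lost without DMSO replicate 1, DMSO replicate 3 or combination replicate 2 and after GC correction (adjusted p = 0.0549 to 0.106). Gaa, Gla, Gusb, Ids and Manba had changes against DMSO of -0.11 to 0.18 after GSK-LSD1 or the combination, none past the test. The summed level of the class, Arsb included, was 0.180% to 0.181% of the library after GSK-LSD1 and 0.177% to 0.181% with DMSO. It was higher after ruxolitinib, at 0.187% to 0.193%, and was 0.192% to 0.199% after the combination.

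The lipid enzymes and their soluble cofactors were led by a pair of genes for sphingolipid activator proteins, which lift lipids to their enzymes. Gm2a, the activator for ganglioside breakdown by hexosaminidase (chromosome 11, 55098115 to 55113029, plus strand), had 1114, 967 and 1004 normalised counts with DMSO and 1114, 1203 and 1050.4 with ruxolitinib. It had 2327, 2219.5 and 2136 with GSK-LSD1 and 2618, 2442 and 2773 with the combination. The libraries with GSK-LSD1 were all above those without it, and the combination lay above GSK-LSD1 alone. The rise against DMSO was 1.12 ± 0.07 and 1.34 ± 0.07 log2 units (limma adjusted p = 7.7e-11 and 2.8e-12), and the difference between the combination and GSK-LSD1, 0.23 ± 0.07, did not pass the test (adjusted p = 0.118). That difference passed with GC correction (limma adjusted p = 0.0459).

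Psap, the precursor of the saposins (chromosome 10, 60277627 to 60302597, plus strand), had 2754, 2677 and 2694 with DMSO and 3016, 3099 and 2958 with ruxolitinib. It had 4339, 4316 and 4452 with GSK-LSD1 and 5597, 5590.4 and 6163 with the combination. The 4 groups did not overlap, and combination replicate 3 was the highest library. The rise against DMSO was 0.69 ± 0.05 and 1.09 ± 0.05 log2 units (limma adjusted p = 3.1e-09 and 1.9e-12). Lipa, the acid lipase that frees cholesterol from its esters (chromosome 19, 34492318 to 34527474, minus strand), had 215, 193 and 197 with DMSO and 197, 198 and 213 with ruxolitinib. It had 308, 336 and 289 with GSK-LSD1 and 312, 309.8 and 327 with the combination. Its groups with and without GSK-LSD1 did not overlap, and it rose by 0.62 ± 0.09 and 0.65 ± 0.09.

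Grn, progranulin, rose by 0.34 ± 0.07 and 0.53 ± 0.07 log2 units after GSK-LSD1 and the combination, Npc2, the soluble cholesterol carrier, by 0.26 ± 0.07 and 0.45 ± 0.07, Asah1, acid ceramidase, by 0.35 ± 0.07 and 0.30 ± 0.07, and Arsa, which acts on sulfatide, by 0.33 ± 0.07 and 0.31 ± 0.07. Galc, galactosylceramidase, rose after the combination (0.54 ± 0.13) and had 0.31 ± 0.13 after GSK-LSD1, short of the threshold (limma adjusted p = 0.0886). Smpd1, acid sphingomyelinase, Ppt1, palmitoyl-protein thioesterase, and Plbd2 were past the test against DMSO in no treatment, with -0.08 to 0.18 log2 units. Under the alternatives, Galc passed after GSK-LSD1 in 2 and Ppt1 in 1. After the combination Ppt1 passed in 3 and Smpd1 in 1. The summed level of the class went from 0.117% to 0.118% of the library with DMSO to 0.163% to 0.169% with GSK-LSD1 and 0.189% to 0.208% with the combination.

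The membrane proteins rose in nearly every case, by small amounts. Cd68, a heavily glycosylated protein of macrophage lysosomes (chromosome 11, 69664213 to 69666153, minus strand), had 78.5, 99.0 and 63.4 with DMSO and 85.6, 101 and 77.1 with ruxolitinib. It had 131, 145 and 117 with GSK-LSD1 and 138, 136 and 155 with the combination. The groups with and without GSK-LSD1 did not overlap, and the rise was 0.72 ± 0.15 and 0.85 ± 0.15 log2 units. Scarb2, the membrane receptor that carries glucocerebrosidase to the lysosome (chromosome 5, 92441314 to 92506833, minus strand), had 305, 343 and 314 with DMSO and 341, 362 and 336 with ruxolitinib. It had 377, 456 and 489.6 with GSK-LSD1 and 535, 496 and 492 with the combination. GSK-LSD1 replicate 1 was the lowest of its group and still above every library without the drug, and the rise was 0.45 ± 0.09 and 0.66 ± 0.09.

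Ctns, the cystine exporter (chromosome 11, 73183596 to 73199042, minus strand), was the member called after ruxolitinib alone. It had 169, 147 and 165 with DMSO, 202, 236 and 202 with ruxolitinib, 237, 268 and 244 with GSK-LSD1, and 284, 259 and 241 with the combination. The DMSO libraries were below all others, and the ruxolitinib libraries lay between them and the libraries with GSK-LSD1. The highest ruxolitinib library, at 236.3, was just below the lowest GSK-LSD1 library, at 236.8. Ctns rose by 0.41 ± 0.10 log2 units after ruxolitinib (limma adjusted p = 0.0393), 0.64 ± 0.10 after GSK-LSD1 and 0.70 ± 0.10 after the combination. The ruxolitinib call was lost in 13 of 23 alternatives, among them without any 1 of the DMSO or GSK-LSD1 libraries, without ruxolitinib replicate 2 and without combination replicate 2 (adjusted p = 0.0521 to 0.186 over the 13), with 0.33 log2 units left when ruxolitinib replicate 2 was out.

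Laptm5, a lysosomal protein of blood cells, rose by 0.37 ± 0.06 and 0.47 ± 0.06 log2 units after GSK-LSD1 and the combination, and Cln3 by 0.27 ± 0.07 and 0.35 ± 0.07. Lamp1 and Lamp2, the abundant glycoproteins that line the lysosomal membrane, both rose after the combination, and Lamp2 also after GSK-LSD1 alone. Lamp1 had 0.10 ± 0.06 after GSK-LSD1 (limma adjusted p = 0.232) and rose by 0.21 ± 0.06 after the combination. Lamp2 rose by 0.26 ± 0.07 after GSK-LSD1 and by 0.22 ± 0.07 after the combination, the latter lost without combination replicate 1 or 2 (adjusted p = 0.0787 to 0.0831). Mcoln1, the lysosomal calcium channel, rose by 0.26 ± 0.09 and 0.42 ± 0.09, and Npc1, which exports cholesterol together with Npc2, by 0.20 ± 0.07 and 0.27 ± 0.07. Cd63, a tetraspanin, rose by 0.18 ± 0.07 after GSK-LSD1 with overlapping libraries and had 0.13 ± 0.07 after the combination. The GSK-LSD1 calls of 3 of these genes were lost in some alternatives. Mcoln1 lost its call without GSK-LSD1 replicate 1 or 2, or DMSO replicate 1 or 3, with no filter and with quantile normalisation, and Npc1 without any 1 of the DMSO libraries or GSK-LSD1 replicate 2 or 3. Cd63 lost its call without DMSO replicate 1 or 2, ruxolitinib replicate 1 or 3, GSK-LSD1 replicate 1 or 2 or combination replicate 2, and also with no filter and with GC correction. Over all alternatives that ended the call, the adjusted p was 0.0507 to 0.152 for Mcoln1, 0.0564 to 0.195 for Npc1 and 0.0510 to 0.228 for Cd63.

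Tfeb, the transcription factor of lysosomal genes (chromosome 17, 47737030 to 47792419, plus strand), was not called after GSK-LSD1. It had 91.4, 97.0 and 98.0 normalised counts with DMSO and 92.9, 101 and 96.7 with GSK-LSD1, which overlapped. It had 112, 115 and 119.6 with ruxolitinib and 116, 109 and 128 with the combination, all above the other 6 libraries. The log2 fold change against DMSO was 0.02 ± 0.11 after GSK-LSD1 (limma adjusted p = 0.920), 0.27 ± 0.11 after ruxolitinib (0.216) and 0.30 ± 0.11 after the combination (0.0419). The last call was lost in 12 of 23 alternatives, among them without any 1 of the DMSO libraries and without combination replicate 1 or 3 (adjusted p = 0.0510 to 0.308 over the 12), and after GC correction the change was 0.20.

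The E-box that TFEB and its relatives bind was read in RefSeq promoter windows of 300 bases, from 250 before to 50 after the start of transcription, on both strands. The windows were found for 41 of the 46 genes, with 48 starts in all. The hexamer CACGTG was in 29.2% of these 48 windows and in 7.15% of all 32851 windows of that length. It was in the windows of 14 genes, namely Ctsd, Ctsl, Ctsa, Lgmn, Dpp7, Glb1, Gaa, Gla, Naglu, Sgsh, Arsa, Lamp1, Mcoln1 and Cln3. The longer form TCACGTGA, which contains it, was in 12.5% of the lysosomal windows and 0.974% of all. The 6 genes that hold the longer form are shown with it in capitals, because they carry the same letters and did not all pass the test.
Ctsd, chr7:142387898-142387947, minus strand: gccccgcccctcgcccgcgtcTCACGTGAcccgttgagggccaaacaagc
Ctsa, chr2:164833739-164833788, plus strand: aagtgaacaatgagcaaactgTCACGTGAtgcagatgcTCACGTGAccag
Dpp7, chr2:25356378-25356427, minus strand: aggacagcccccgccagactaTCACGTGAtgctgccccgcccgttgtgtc
Gla, chrX:134601205-134601254, minus strand: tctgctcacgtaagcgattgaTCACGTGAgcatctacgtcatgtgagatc
Mcoln1, chr8:3500452-3500501, plus strand: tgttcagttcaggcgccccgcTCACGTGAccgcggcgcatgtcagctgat
Cln3, chr7:126583330-126583379, minus strand: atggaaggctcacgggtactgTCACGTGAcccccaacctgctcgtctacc

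Of these 6, Ctsd, Ctsa, Mcoln1 and Cln3 rose after GSK-LSD1 by 0.20 to 0.28 log2 units, while Dpp7 (0.19 ± 0.09, limma adjusted p = 0.124) and Gla (0.03 ± 0.09, adjusted p = 0.851) did not pass the test. Among the 14 genes with CACGTG, 10 rose after GSK-LSD1 with a median of 0.28, and among the 27 with a window but without it, 17 rose and 1 fell with a median of 0.31. Of all genes tested, 17.0% rose and 15.5% fell after GSK-LSD1. After the combination the medians were 0.36 and 0.45. Scpep1, Ctss and Gm2a, which rose most along with Lgmn, are among the genes without it. The PU.1 motif GAGGAAGT was in the windows of Ctss, Gusb and Gla (6.25% of lysosomal windows and 3.20% of all). The GFI1 motif AAATCAC was in that of Dpp7 (2.08% and 3.20%) and the C/EBP motif TTGCGCAA in that of Ids (2.08% and 0.183%). A match describes the letters of the window and is no evidence of binding.

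GSK-LSD1 raised many of these genes also when ruxolitinib was present. Added to ruxolitinib, it raised 30 of the 45 genes and lowered 1, against 16.0% and 15.6% of all genes, with a median of 0.28 log2 units. Across the 45 genes its effect without and with ruxolitinib, measured in separate libraries, had a Pearson's r of 0.978 and a Spearman's rho of 0.881, and 41 of 45 had the same sign. Over all genes tested these were 0.852, 0.792 and 81.7%. The correlations are across genes, which are not independent replicates. Of the calls with ruxolitinib present, those of Ctsa, Naglu, Manba, Neu1, Galc, Ppt1, Lamp1 and Ctns were lost in 1 to 13 of 23 alternatives (limma adjusted p = 0.0505 to 0.182). All of these but Galc were lost without at least 1 ruxolitinib or combination library, and Galc was lost under quantile normalisation.

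**Figure D4:**
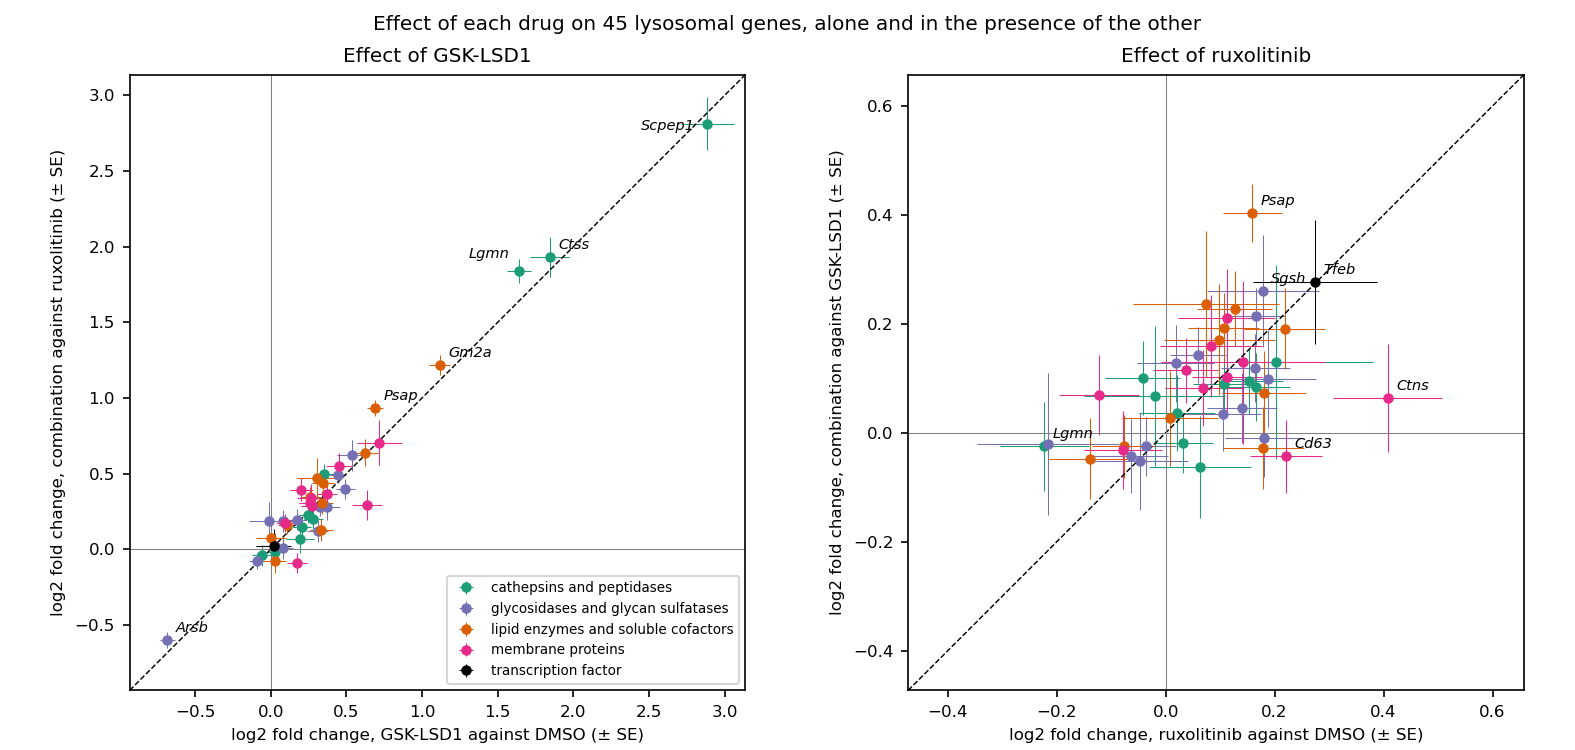
Log2 fold change (± SE) of 45 lysosomal genes for GSK-LSD1 without ruxolitinib (horizontal) and with it (vertical) on the left, and for ruxolitinib without and with GSK-LSD1 on the right, with the dashed line at equal effects. The GSK-LSD1 effects lie along the line from Arsb at -0.68 to Scpep1 at 2.89, and the ruxolitinib effects are small, with Psap highest on the vertical axis at 0.40.

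Few of these genes differed between the combination and GSK-LSD1 alone. Between the combination and GSK-LSD1 alone 2 genes rose and 0 fell, against 1.05% and 0.348% of all genes, and at an unadjusted p under 0.05 it was 9 of the 45, against 12.3% of all genes. Psap was 0.40 ± 0.05 log2 units higher in the combination (limma adjusted p = 0.00014), a call kept in all 23 alternatives. Man2b1 was 0.21 ± 0.05 higher (adjusted p = 0.0405), a call lost in 12 of 23 alternatives, among them the removal of any 1 DMSO, GSK-LSD1 or combination library (adjusted p = 0.0518 to 0.156 over the 12). The ruxolitinib effect alone and in the presence of GSK-LSD1 had a Pearson's r of 0.467 across the 45 genes, with the same sign in 37. Over all genes r was 0.387, with the same sign in 67.5%. Both effects followed GC content over all genes (Spearman's rho 0.429 and 0.275). Ruxolitinib replicate 2 and combination replicate 3, which stood apart, also deviated together (correlation 0.276). The part of either in this agreement was not tested.

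A test of the interaction, the effect of the combination beyond the sum of both drugs on the log2 scale, called 0 of the 45 genes with limma, where 0.00871% of all genes were called, and 3 had an unadjusted p under 0.05, against 4.65% of all genes. The estimates ranged from -0.34 ± 0.14 for Ctns to 0.24 ± 0.08 for Psap (limma adjusted p = 0.998 and 0.774). The third of these genes was Cd63, at -0.26 ± 0.09. Estimates of this precision do not show that the drugs act independently. Set against ruxolitinib, GSK-LSD1 had 19 genes higher and 1 lower, against 13.6% and 11.8% of all genes. Of these calls, those of Manba, Sgsh, Ppt1, Scarb2 and Cln3 were lost without 1 ruxolitinib or GSK-LSD1 library (limma adjusted p = 0.0548 to 0.145 over 1 to 6 alternatives each). A further 9 genes gained a call in this comparison in at least 1 alternative. The number higher was 26 with GC correction, 24 without both libraries that stand apart, and 16 without GSK-LSD1 replicate 1 or 2.

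Genes that build, feed or serve the lysosome were read from 6 further lists. After GSK-LSD1, 23 of 88 tested genes of these lists rose and 3 fell, and after the combination 31 rose and 5 fell. The shares that rose were 26.1% and 35.2%, against 17.0% and 20.5% of all genes tested, and 15.5% and 21.8% of all genes fell. These shares of all genes also stand behind the counts of the single lists, several of which are near them. After ruxolitinib 1 rose, Igf2r, a receptor for mannose 6-phosphate (0.69 ± 0.14), which overlaps the antisense gene Airn. Of the other lysosomal hydrolases and membrane proteins, 10 of 25 rose after GSK-LSD1, and 13 rose and 1 fell after the combination. Slc11a1, a metal transporter of phagosomes, rose by 1.02 ± 0.20 and 1.44 ± 0.20 log2 units, and Ctso, cathepsin O, by 0.57 ± 0.11 and 0.62 ± 0.11. Lyz2, lysozyme, rose by 0.32 ± 0.10 after GSK-LSD1, with overlapping libraries, and by 1.35 ± 0.10 after the combination, and was 1.03 ± 0.10 higher in the combination than with GSK-LSD1 alone (limma adjusted p = 2.5e-06). Its GSK-LSD1 call failed when GSK-LSD1 replicate 1, DMSO replicate 2 or DMSO replicate 3 was left out (adjusted p = 0.0603 to 0.0996).

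Of 14 tested subunits of the proton pump that acidifies the lysosome, 3 rose after GSK-LSD1 and 3 after the combination, or 21.4%, near the 17.0% and 20.5% of all genes. Atp6v0a1, a membrane subunit of the pump, rose by 0.53 ± 0.07 and 0.63 ± 0.07 log2 units, Atp6ap1, an accessory protein, by 0.27 ± 0.05 in both, and Atp6v0d1 by 0.26 ± 0.06 after the combination. Of 10 genes that sort enzymes to the lysosome, 2 rose after GSK-LSD1, near the share of all genes (17.0%), and 3 rose and 1 fell after the combination (20.5% and 21.8% of all genes). Sort1, the sorting receptor sortilin, rose by 0.51 ± 0.13 and 1.49 ± 0.13, and was 0.97 ± 0.13 higher in the combination than with GSK-LSD1 alone (limma adjusted p = 0.00011). Gnptab, which makes the mannose 6-phosphate tag, rose by 0.28 ± 0.06 and 0.24 ± 0.06, and M6pr, a receptor for that tag, fell by 0.21 ± 0.06 after the combination.

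Among 16 tested genes of the TFEB family and of nutrient sensing at the lysosome, 2 rose and 2 fell after GSK-LSD1, and 3 rose and 2 fell after the combination. These are no larger shares than those of all genes, of which 17.0% rose and 15.5% fell after GSK-LSD1 and 20.5% and 21.8% after the combination. Tfe3, a relative of Tfeb, rose by 0.42 ± 0.07 and 0.40 ± 0.07 log2 units. Tfec, another relative, fell by 0.55 ± 0.17 after GSK-LSD1, a call that failed when any 1 of GSK-LSD1 replicates 1 and 2 and DMSO replicates 1 and 2 was left out (limma adjusted p = 0.0570 to 0.104). Rraga, a small GTPase that brings mTORC1 to the lysosome, fell by 0.20 ± 0.07 and 0.22 ± 0.07, and these calls were lost without DMSO replicate 2, and the first also without GSK-LSD1 replicate 2 or 3 (adjusted p = 0.0509 to 0.145). Of 11 genes for fusion with the lysosome, 3 rose and 1 fell after GSK-LSD1 and 3 rose after the combination, where 17.0% and 20.5% of all genes rose. Stx7, a fusion protein of late endosomes, rose by 0.61 ± 0.07 and 0.47 ± 0.07, Plekhm1 by 0.24 ± 0.07 and 0.30 ± 0.07 and Vps18 by 0.21 ± 0.07 and 0.31 ± 0.07. After GSK-LSD1, Plekhm1 lost its call without DMSO replicate 3 (adjusted p = 0.0503), and Vps18 without DMSO replicate 3 or GSK-LSD1 replicate 2 (0.102 to 0.112). Of 12 autophagy genes, 3 rose after GSK-LSD1, and 6 rose and 1 fell after the combination, against the same shares of all genes. Wipi1, which acts in early autophagosome formation, rose by 0.69 ± 0.09 and 0.79 ± 0.09, Ulk1, the starting kinase, by 0.56 ± 0.07 and 0.61 ± 0.07, and Sqstm1, a cargo receptor, by 0.36 ± 0.06 and 0.43 ± 0.06.

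Many markers of monocytes, macrophages and neutrophils rose along with the lysosomal genes, as did some progenitor and mast cell markers. The counts of markers stand against 17.0% of all genes that rose and 15.5% that fell after GSK-LSD1, and 20.5% and 21.8% after the combination. Of 8 tested monocyte and macrophage markers, 5 rose after GSK-LSD1 and 6 after the combination, and the summed level of all 12 listed went from 1307 to 1444 normalised counts with DMSO to 2130.1 to 2333 with GSK-LSD1 and 2250.2 to 2520.0 with the combination. Among those not tested, Mrc1, Msr1 and Klf4 had means under 10. Of 10 tested neutrophil markers, 6 rose after GSK-LSD1 and 9 after the combination, with summed levels of 7511 to 8997, 12610 to 14134 and 18849 to 20703 for DMSO, GSK-LSD1 and the combination. Mmp8 and S100a9 had the highest means of that list, at 2074 and 2940 with DMSO, 5405 and 4054 with GSK-LSD1, and 8019 and 6632 with the combination. Camp and Retnlg reached at most 1.99 and 5.97 in any library and were not tested. The mean of Ngp was 51.1 with DMSO, 38.6 with GSK-LSD1 and 109 with the combination. Of 8 progenitor markers, 2 rose and 5 fell after GSK-LSD1, and 3 rose and 2 fell after the combination. Among them, Cd34 had group means of 263 with DMSO, 1020 with GSK-LSD1 and 1323 with the combination, and Kit had 19.2, 44.2 and 52.2. Of 8 mast cell and basophil markers, 5 rose in each. Of 3 tested dendritic cell markers, 2 rose in each, and of 4 tested megakaryocyte markers 1 rose after GSK-LSD1. Of 5 tested erythroid markers, 3 fell after GSK-LSD1 and 4 after the combination, with the globin genes at 0. Of 2 tested stromal and endothelial markers, 2 rose after GSK-LSD1 and 1 after the combination, with Cdh5, Kdr and Cxcl12 at 0. No B cell marker could be tested, with Ms4a1 and Pax5 at 0, and the 1 T and NK cell marker tested did not pass, with Cd4 and Ncr1 at 0. The part of these changes in the rise of the lysosomal genes was not tested.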

How the data were processed

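RNA-seq libraries were made from total RNA, per the labels' protocols. The deposited table holds the authors' normalised read counts per gene symbol, a signal to which a constant of 1e-05 had been added, and this was taken off. STAR, DESeq2, mm10 and GRCm38 are named in the submitters' processing notes, and strand setting, counter and versions are not given in the sources used here. Of 24411 symbols, 7367 were at 0 in all libraries, 27 had been turned into dates and 2 occurred more than once. Symbols with a mean of at least 10 (11484) were tested on log2(value + 1) with limma 3.58.1 in R 4.3.3 (variance trend, 4 group means, 8 residual degrees of freedom), with Benjamini-Hochberg adjustment over all of them and a threshold of 0.05. Fold changes are on that scale and understate those of low genes. On simulated data for GSK-LSD1 against DMSO with 11484 genes, 98.7% of 2-fold, 87.3% of 1.5-fold and 38% of 1.2-fold changes were recovered. Each simulated draw gave all genes the same dispersion and changed 200 of them, where 3728 were called between GSK-LSD1 and DMSO here. The recovery describes that setting and may differ in these data. The genes and lists were chosen with earlier results of these data known. Values per library are given for the 3 genes of each class with the largest change past the test and no overlap, for those past the test between the combination and GSK-LSD1, and for Tfeb. Pathway genes named are up to 3 per list with the smallest p. Gene positions are from GENCODE (GRCm38) and promoters from RefSeq. Of the 45 genes, 21 overlap another annotated gene, 18 of them 1 on the other strand.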

Additional observations from a re-analysis of the deposited data

How the results depend on the processing

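Each comparison was recomputed under 23 alternatives (22 for the interaction), which changed the pseudocount, the filter, the scaling, a GC correction, the replicate block, the libraries or the groups fitted. Of the lysosomal calls, 26 of 30 after GSK-LSD1 and 30 of 33 after the combination were made in every alternative. A further 3 genes after GSK-LSD1 and 6 after the combination were called in at least 1 alternative. The count for ruxolitinib against DMSO, 1 gene, was 0 with no filter, with quantile normalisation, with the replicate block and with the groups of the comparison only, and 2 without both libraries that stand apart. It ranged from 0 to 4 when 1 library was left out, with 4 without combination replicate 3 (Ctns, Man2b1, Grn and Cd63). The count for the combination against GSK-LSD1, 2 genes, was 1 with no filter, with the replicate block and with its groups only, and ranged from 1 to 2 when 1 library was left out. With GC correction it was 3, where Gm2a also passed. The number past the F-test, 34, ranged from 31 to 35 over 22 alternatives added after seeing the data, as were those for pathway genes. No lysosomal gene or named pathway gene called in a comparison, or under an alternative to it, changed sign there. The causes of these moves were not tested. Same-numbered libraries of different groups did not deviate together more than others (correlations of -0.148 to 0.15 over 18 pairs, against -0.226 to 0.276 over 36 others). Such correlations cannot settle whether same-numbered samples were grown or prepared together. With the replicate block, 26 genes rose and 1 fell after GSK-LSD1 (Cd63, Mcoln1 and Npc1 no longer passed) and 31 rose and 1 fell after the combination. The 3 libraries per group limit what can be seen of small changes. On simulated data 38% of 1.2-fold changes were recovered, in a setting that differs from these data in dispersion and number of changed genes.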
